A study of Mus musculus with 2 samples.

Results

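TEC is the label that the GENCODE annotation gives to unspliced clusters of expressed sequence tags with signs of a poly(A) tail that still await experimental proof as genes. The genes described here carry at least 1 transcript of that type and had a mean expected count of 100 or more over the libraries. They were 61 of 3258 genes with a TEC transcript, and the whole table held 55536 genes. Of the 61, 52 were genes of type TEC, and 9 were other genes in which 1 or more isoforms carry the label. The rule used the counts themselves, so that these genes are abundant for their type is how they were chosen and not a result. Of the 3258, 1360 had a count above 0 in either library, 419 averaged 10 or more, and 1898 were at 0 in both.

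The libraries came from bone-marrow-derived macrophages of C57BL/6J mice, exposed to lipid A at 100 ng/ml for 75 minutes and then separated so that RNA of the cytosolic fraction could be taken. Lipid A is the membrane anchor of lipopolysaccharide from Gram-negative bacteria and is sensed by macrophages as a sign of infection. Total RNA was depleted of ribosomal RNA and sequenced in 2 libraries of this 1 group, which the labels number as biological replicates 2 and 1, each from 1 µg of RNA. Both carry the same donor identifier and the labels do not tell whether separate mice or dishes were used, so a spread between them may be partly technical. Untreated cells, other times and a nuclear fraction were not analysed here, so no test between conditions exists and no p-value is given.

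In an animal cell the nucleus holds pre-mRNA with its introns, and splicing removes the introns before an mRNA is exported to the cytoplasm. Excised introns and incompletely spliced RNA mostly stay in the nucleus and are broken down there. A cytosolic fraction is prepared by opening the outer membrane of the cell and spinning the nuclei away. A polyadenylated RNA usually carries the letters AATAAA, or less often ATTAAA, shortly before its 3′ end, where the cleavage machinery recognises them.

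The annotated 3′ ends show how TEC transcripts differ in this respect. The last 60 bases of a TEC transcript are printed 5′ to 3′ for the 5 genes of highest mean count, from GENCODE M21 transcript sequences on mm10. Only in Gm44250 is the gene's count that of the printed transcript. In Ensa, Memo1, Sfswap and Dera the TEC isoform held 0.56%, 0.15%, 2.45% and 0.04% of the gene's count. Capitals mark AATAAA or ATTAAA anywhere in the printed bases.
Ensa (chr3:95625931-95625990, + strand): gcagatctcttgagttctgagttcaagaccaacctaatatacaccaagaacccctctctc
Gm44250 (chr6:5216258-5216317, - strand): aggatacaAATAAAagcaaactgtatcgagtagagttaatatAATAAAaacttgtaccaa
Memo1 (chr17:74254675-74254734, - strand): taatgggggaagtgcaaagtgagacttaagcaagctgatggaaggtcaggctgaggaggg
Sfswap (chr5:129502989-129503048, + strand): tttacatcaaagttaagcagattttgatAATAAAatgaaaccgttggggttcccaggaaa
Dera (chr6:137760905-137760964, + strand): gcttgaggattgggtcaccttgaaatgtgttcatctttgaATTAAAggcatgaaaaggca

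Gm44250, Sfswap and Dera held such letters in the last 40 bases, the stretch searched in all transcripts; the first copy in Gm44250 lay before that stretch. Ensa and Memo1 had none. The next 5 ends, chosen after the values were seen, belong to genes on the opposite strand of a coding gene (2210406H18Rik and AC167363.2) and inside an intron of a coding gene on its own strand (Gm38357, Gm37084 and Gm37033).
2210406H18Rik (chr7:121062852-121062911, - strand): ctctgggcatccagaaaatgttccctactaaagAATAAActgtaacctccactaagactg
AC167363.2 (chr17:29093416-29093475, - strand): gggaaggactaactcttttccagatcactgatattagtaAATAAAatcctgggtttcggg
Gm38357 (chr3:51234321-51234380, + strand): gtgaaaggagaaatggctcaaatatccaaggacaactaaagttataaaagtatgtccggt
Gm37084 (chr1:131086252-131086311, - strand): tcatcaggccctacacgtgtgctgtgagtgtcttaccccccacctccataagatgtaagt
Gm37033 (chr1:180364939-180364998, + strand): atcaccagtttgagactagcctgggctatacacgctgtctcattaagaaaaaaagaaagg

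The first pair carried the letters and the intronic 3 did not, and the end of Gm37033 was rich in A. Over the 31 TEC genes that lay inside a coding gene on its strand, 3 (9.68%) held AATAAA or ATTAAA on the transcript strand of the last 40 bases: Gm45407, Gm45222 and Gm36638. Over the 13 TEC genes on the opposite strand of a coding gene they were held by 6 (46.2%), and over the 8 outside coding genes by 5 (62.5%). The share was 27.7% over 3245 TEC transcripts of at least 200 bases, 21.4% over retained-intron transcripts, 39.1% over lincRNA transcripts, 48.8% over protein-coding transcripts and 34.2% over all 134529. The same letters read on the reverse strand (TTTATT or TTTAAT) were in 3 of the 31 same-strand ends, in 0 of 13 and 0 of 8 in the other classes, and in 6.04% of all transcripts. A match describes the annotated letters and says nothing about where an RNA in these cells ended.

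**Figure D1:**
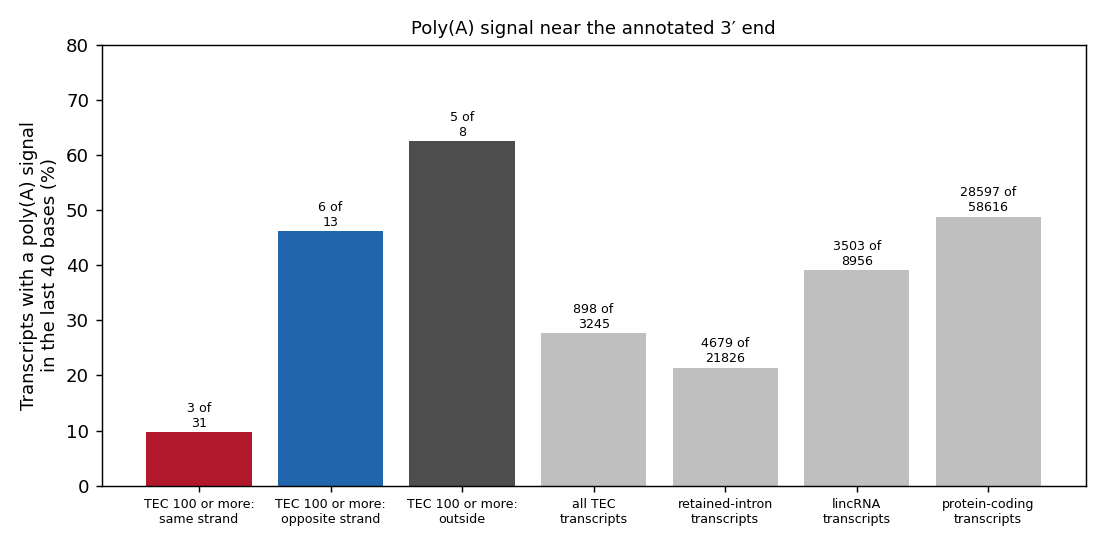
Share (%) of annotated transcripts with AATAAA or ATTAAA in their last 40 bases, for TEC genes that averaged at least 100 counts, by position relative to coding genes (coloured bars) and for all annotated transcripts of 4 types (grey bars); the numbers above the bars are counts of transcripts. The bar for same-strand TEC genes stands at 9.68%, and those for opposite-strand and outside genes at 46.2% and 62.5%.

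The first quantification assigned 50157146 counts to genes in replicate 2 and 55596625 in replicate 1. All 8 macrophage markers were present, at 23.9 to 4169 TPM (transcript abundance per length, scaled to a fixed sum), whereas markers of T and NK cells, B cells, erythroid cells, neutrophils and stroma all averaged under 1 TPM, the highest being Ltf at 0.55 TPM. The neutrophil granule genes Ltf and Mpo were higher in replicate 2, with 177 counts in replicate 2 and 74 in replicate 1 for Ltf (ratio 2.73) and 56 and 20 in the same order for Mpo (3.15); the third neutrophil marker, Elane, had 6 and 8 counts, and the part of these cells was not tested. Rn7s1 and Rn7s2, the copies of the 7SL RNA gene, held 60.5% of TPM in replicate 2 and 69.8% in replicate 1, which lowers the TPM of every other gene. The libraries differed in the more abundant of the listed nuclear RNAs. The list of long noncoding RNAs of the nucleus had 10 members, of which 5 reached a mean count of 100, and all 5 were more than 2-fold higher in replicate 2 (2.54 to 4.76 times). Malat1 had 799 TPM in replicate 2 and 158 TPM in replicate 1. The 10 summed to 872 TPM in replicate 2 and 175 TPM in replicate 1, most of it Malat1, with Meg3 and Tsix at 0. Below a mean count of 100, Airn (ratio 1.64), Pvt1 (1.23) and Snhg11 (1.12) stayed under 2-fold. Of 10 noncoding RNAs known to reach the cytoplasm, 7 reached a count of 100, at 0.651 to 1.30 times. Below it were Snhg5 (1.13), Snhg12 (0.948) and Dancr (3.11, from 20 counts in replicate 2 and 7 in replicate 1). The part of the difference in nuclear RNAs in the values of TEC genes was not tested.

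All TEC genes together held a small share of the RNA. Genes of type TEC took 36967 counts (0.0737%) in replicate 2 and 18576 counts (0.0334%) in replicate 1, and the 52 above the minimum took 18382 counts in replicate 2 and 9999 counts in replicate 1. In replicate 2 their median level was 0.845 TPM, against 0.39 TPM in replicate 1, and 15 of the 52 averaged 1 TPM or more. Coding genes at the same count minimum had a median of 5.10 TPM and lincRNA genes of 2.08 TPM. All 61 genes had TEC transcripts of a single exon, as do 98.2% of annotated TEC transcripts. Those of the 52 were long, with a median of 2975 bases and a range of 453 (Gm37376) to 30942 bases (9330162G02Rik). They lay on 17 chromosomes.

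By position the 52 fell into 3 classes. There were 31 inside a protein-coding gene on its own strand, in 24 host genes; 13 overlapped a coding gene on the opposite strand; 8 touched no coding gene. The same-strand genes took 11045 counts in replicate 2 and 3387 counts in replicate 1, the opposite-strand genes 3620 and 3127 counts in replicates 2 and 1, and the outside genes 3717 and 3485 counts in the same order. Within the 52, the difference between the libraries in summed count thus lay mostly in the same-strand class. The count minimum bears on this, since 20 of the 31 same-strand genes passed it only through replicate 2. Summed counts of the TEC genes below the minimum were not split by class.

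**Figure D2:**
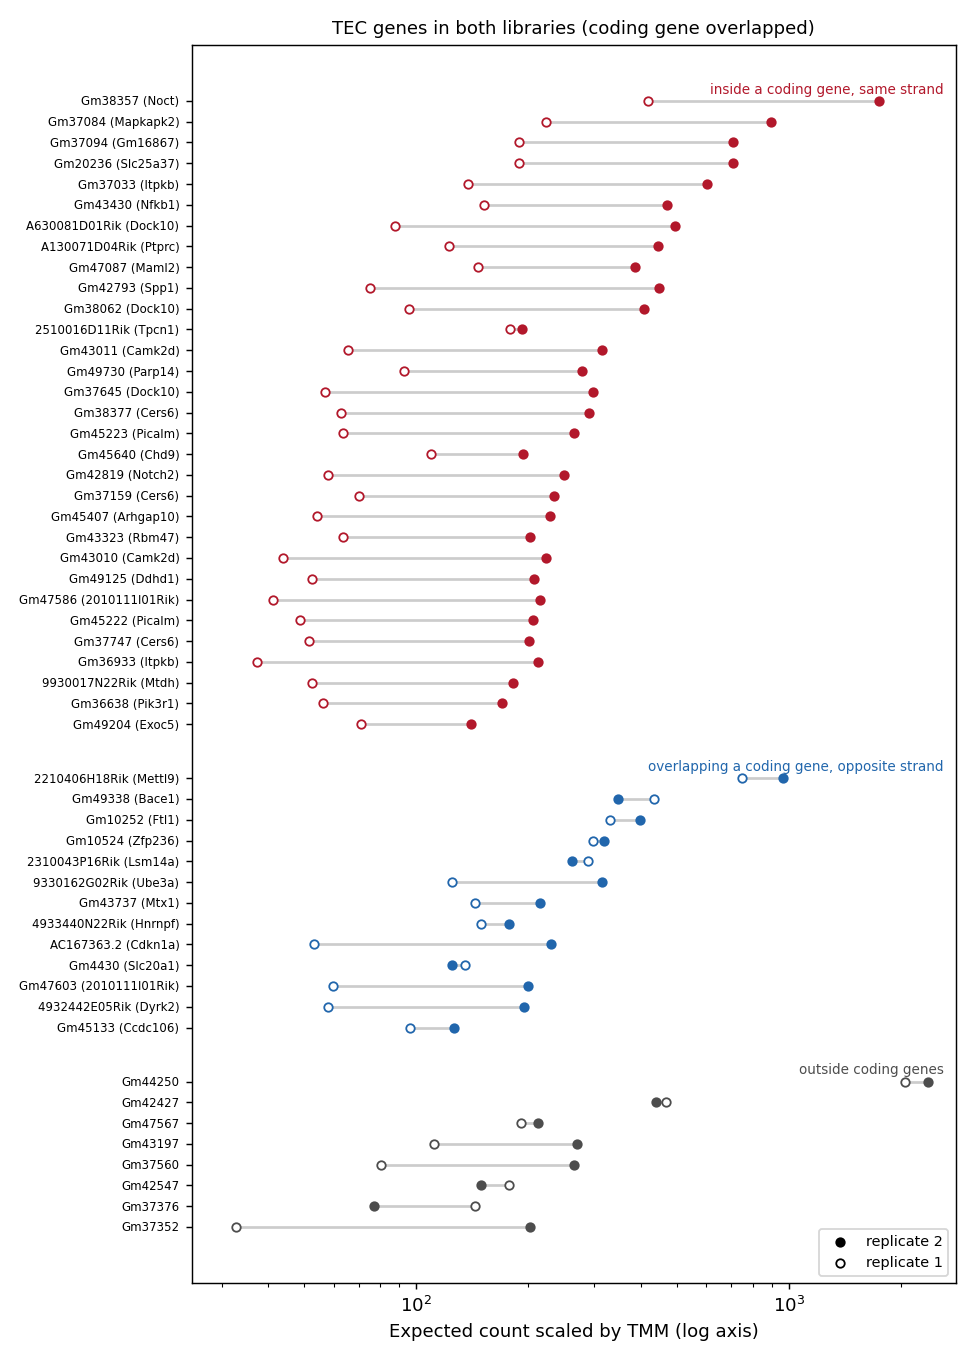
Expected count scaled by TMM (log axis) of the 52 TEC genes that averaged at least 100 counts, in replicate 2 (filled) and replicate 1 (open), grouped by position; the coding gene overlapped stands in brackets. In the same-strand class the filled point lies to the right of the open one for all 31 genes, while in the other classes several pairs lie close together or the other way round.

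The library ratio, replicate 2 over replicate 1 from TMM-scaled counts with 0.5 added, had a median of 3.02 over all 61 genes, and 36 of them were more than 2-fold higher in replicate 2 while 0 were more than 2-fold lower. Over all 10091 genes at the count minimum 1.31% were more than 2-fold higher and 0.287% more than 2-fold lower. The 61 made up 0.604% of the genes at the minimum and 36 of the 132 genes (27.3%) past 2-fold higher. The minimum on the mean count bears on this: 26 of the 61 reached 100 in replicate 2 and not in replicate 1, so they had to differ, and 1 (Gm37376) the other way round. Chosen by replicate 1 alone, 38 genes with a TEC transcript reached 100; 11 of them were more than 2-fold higher in replicate 2 and 1 more than 2-fold lower, with a median ratio of 1.13. The counts over all 61 are therefore a description of these genes and not a measure of TEC genes in general.

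The classes differed in this ratio. Same-strand genes had a median of 3.997 (1.08 to 5.96), and 28 of 31 were more than 2-fold higher in replicate 2. For 30 of 31 the 95% counting interval of the ratio lay above 1. Of the 31, 20 passed the count minimum only through replicate 2, which favours both of these counts by construction. The share of all genes with such an interval is not given here. Opposite-strand genes had a median of 1.28 (0.802 to 4.30), with 4 of 13 past 2-fold. Outside genes had a median of 1.13 (0.537 to 6.10), with 3 of 8 past 2-fold. Chosen by a count of 100 in replicate 1 alone, whatever the mean, 11 same-strand genes had a median of 3.75 with 9 past 2-fold higher, 11 opposite-strand genes 1.19 with 1 past it, and 7 outside genes 0.942 with 1 past it. In the second quantification the medians of the 31, 13 and 8 genes were 3.54, 1.14 and 1.66. The order of the opposite-strand and outside classes thus turned there. In the same-strand class, Gm20236 and Gm37094 have identical sequences and were counted as separate genes. Both had a ratio of 3.745, or 3.544 in the second quantification. The median log2 ratio over all genes of type TEC at the minimum was 1.73, and 1.726 with this pair counted once. Intervals cover counting error only and leave out differences between preparations. They treat sequenced fragments as independent molecules, which these are not, so they may be too narrow.

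Of the TEC genes below the minimum, which the rule left out, those with a mean count of 10 to under 100 had a median ratio of 3.56 over 229 same-strand genes, of which 185 were past 2-fold higher. It was 2.54 over 69 opposite-strand genes, of which 40 were past 2-fold, a larger share than the 4 of 13 above the minimum, and 1.53 over 53 outside genes, of which 17 were past 2-fold. This range was also set on the mean count, so a gene could enter it through replicate 2 alone, and how many did was not counted. The share of all genes in this range past 2-fold was not computed, and counting error is wide at such counts. The numbers past 2-fold in this range therefore stand without a baseline. Other classes at 100 counts or more are given for comparison with the TEC genes above the minimum. Retained-intron transcripts had a median of 1.27, with 275 of 853 (32.2%) past 2-fold higher. For protein-coding transcripts this was 0.976, with 271 of 13960 (1.94%) past it. Antisense genes had a median of 1.22, with 12 of 58 (20.7%) past 2-fold higher, and lincRNA genes 0.989, with 13 of 70 (18.6%). Protein-coding genes had a median of 0.981 over 9699, of which 0.299% were past 2-fold higher.

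**Figure D3:**
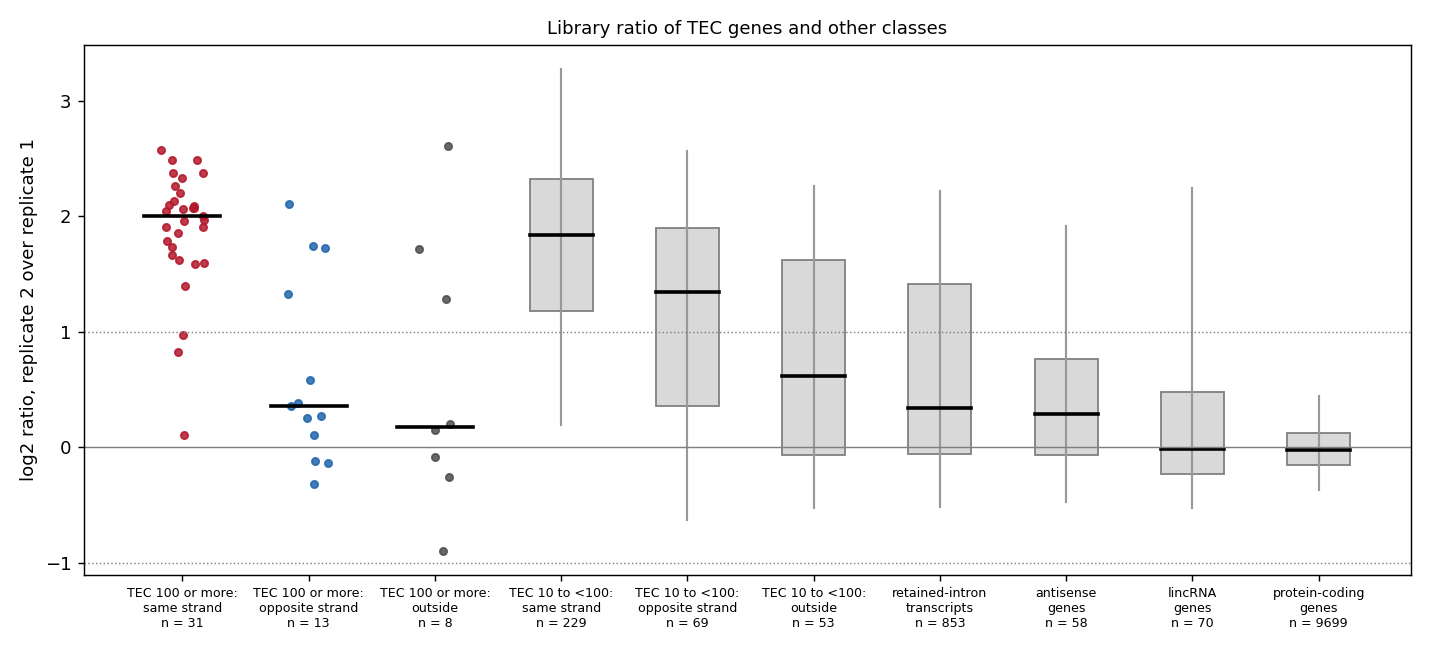
Log2 of the ratio of replicate 2 to replicate 1 for TEC genes that averaged at least 100 counts (points, with the median as a bar) and, as boxes, for TEC genes of lower count and other classes; boxes span the quartiles, thick bars are medians and thin lines run from the 5th to the 95th percentile. The same-strand points centre at 2.00, the opposite-strand points at 0.36 and the outside points at 0.18, beside -0.03 for protein-coding genes; dotted lines mark 2-fold.

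Same-strand genes lay in introns of their hosts. All 31 lay wholly inside the host, 28 had 0 bases in any annotated exon of it, and 29 lay in a single intron of its leading mRNA. Of these 29, 12 lay in intron 1, 8 in intron 2 and 9 in a later one; intron 1 makes up 31.6% of the intron length of the hosts. The 24 introns concerned had a median of 40168 bases (3400 to 321428). An intron that holds a TEC gene has to be longer than it, and the median same-strand TEC gene had 3745 bases. Of the 101546 introns of coding genes at the count minimum 20.3% were at least that long, with a median of 7397 bases. The hosts spanned a median of 100606 bases, beside 24726 bases over 9699 such coding genes, and their median level was 20.3 TPM (1.49 to 1081), beside 5.10 TPM.

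The highest count in this class belonged to Gm38357 (chr3:51231917-51234380, + strand, 2464 bases), in intron 1 of Noct, the gene for the circadian and lipopolysaccharide-responsive protein nocturnin. It had 1636 counts (7.46 TPM) in replicate 2 and 449 counts (1.72 TPM) in replicate 1, a ratio of 4.17 (95% counting interval 3.76 to 4.64). Noct itself had 34.5 TPM in replicate 2 and 21.95 TPM in replicate 1, a ratio of 1.75, the highest among the 24 hosts. The TEC gene differed between the libraries more than its host did.

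Gm37084 (chr1:131086252-131092149, - strand, 5898 bases) lay in intron 1 of Mapkapk2, the gene for a kinase downstream of p38 that controls cytokine mRNA. It had 836 counts in replicate 2 and 239 counts in replicate 1, a ratio of 3.997 (3.46 to 4.64). Mapkapk2 was lower in replicate 2, with 89.8 TPM in replicate 2 and 116 TPM in replicate 1 (ratio 0.743), so the intronic gene and its host went opposite ways. Gm43430 lay in intron 4 of Nfkb1, which encodes the NF-kB precursor p105, and had 439 counts in replicate 2 and 163 counts in replicate 1 (ratio 3.08), with a host ratio of 1.15. A130071D04Rik, in intron 2 of Ptprc, the gene for the leukocyte surface phosphatase CD45, had 415 counts in replicate 2 and 131 counts in replicate 1 (ratio 3.62).

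There were 5 hosts with more than 1 same-strand TEC gene. Dock10, a guanine nucleotide exchange factor for small GTPases, held 3 in intron 1. A630081D01Rik had 463 counts in replicate 2 and 94 in replicate 1, Gm38062 had 381 and 102 in the same order, and Gm37645 had 278 and 61, with ratios of 5.61, 4.26 and 5.18. Cers6, a ceramide synthase gene, held 3 with ratios of 3.33 to 4.60, in introns 1, 3 and 4. Itpkb, a kinase gene of inositol phosphate signalling, held Gm37033 with 564 counts in replicate 2 and 147 in replicate 1, and Gm36933 with 198 and 40 counts in the same order, both in intron 2 (ratios 4.38 and 5.60). Camk2d, a calcium/calmodulin-dependent kinase gene, and Picalm, a clathrin assembly gene, each held 2, at 4.80 to 5.02 and 4.13 to 4.19. TEC genes of 1 host are not independent of each other.

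Of the 31, 30 had a higher ratio than their host; the median difference, TEC gene minus host, was 1.74 on the log2 scale (-0.03 to 2.46). The count minimum bears on this too, since 20 of the 31 passed it only through replicate 2. Of the 11 that reached 100 in replicate 1, 10 had a higher ratio than their host, with a median difference of 1.45. None of the 24 hosts was more than 2-fold apart between the libraries, with a median ratio of 1.09 (0.743 to 1.75). The exception was 2510016D11Rik (985 bases, chr5:120552055-120553039, - strand) in intron 10 of Tpcn1, an endolysosomal cation channel gene. It had 180 counts in replicate 2 and 191 counts in replicate 1, a ratio of 1.08, beside 1.10 for Tpcn1. Among the other same-strand genes, Gm45640 in Chd9 (1.77) and Gm49204 in Exoc5 (1.97) also stayed under 2-fold. Across the 31 pairs Spearman's rho between the ratios of TEC gene and host was 0.41; the pairs share the libraries, and 12 of them share a host with another.

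**Figure D4:**
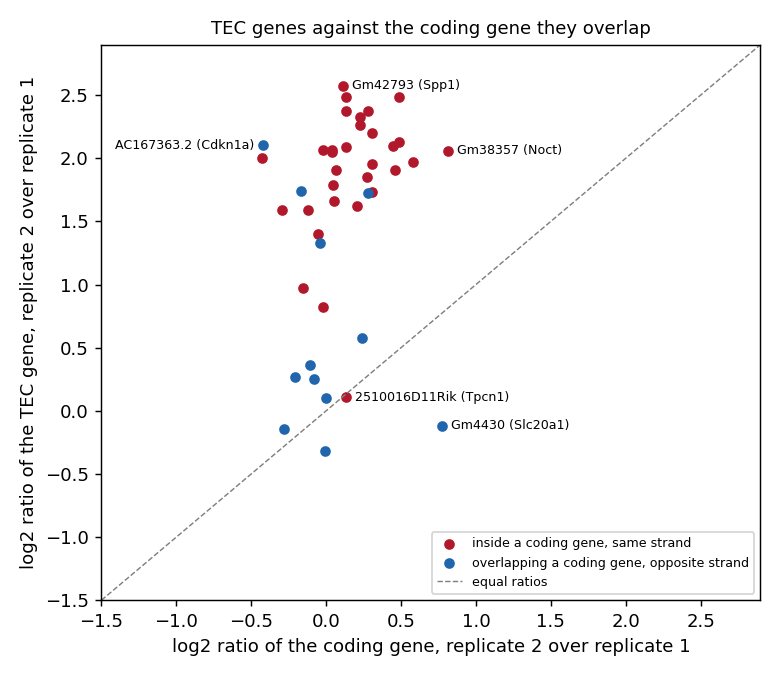
Log2 ratio of replicate 2 to replicate 1 of each TEC gene (vertical axis) against that of the coding gene it overlaps (horizontal axis), for same-strand (red) and opposite-strand (blue) genes, with the line of equal ratios dashed; the pair with Ccdc106 is left out because that gene is near 0. All red points except 2510016D11Rik lie above the line, and the host values lie within 1 log2 unit of 0.

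In level, same-strand genes stood far below their hosts. The median was 3.79% of the host's TPM in replicate 2 and 1.10% in replicate 1, or 2.35% for the mean of both. Of the 31, 22 were under 5%, 2 between 5% and 10%, and 7 at 10% or more. The lowest was Gm42793 in Spp1, the osteopontin gene and the most abundant host, at 0.223%. It had 420 counts in replicate 2 and 80.1 in replicate 1 (ratio 5.96, 4.72 to 7.73). Of its bases 24.7% lie in exons of Spp1, at 1144 TPM in replicate 2 and 1018 TPM in replicate 1. The authors' posterior SD of its count was 0.36% in replicate 2 and 0.4% in replicate 1, and the ratio in the second quantification was 6.17. The highest was Gm47087 in intron 1 of Maml2, a Notch coactivator gene, at 42.3%, with 0.92 TPM in replicate 2 and 0.34 TPM in replicate 1 beside 1.52 and 1.46 TPM for Maml2 in the same order. TPM spreads fragments over the whole annotated length, and in bulk RNA fewer cells with a transcript and less of it per cell cannot be told apart. Across the 31 pairs Spearman's rho between the TPM of TEC gene and host was -0.10.

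**Figure D5:**
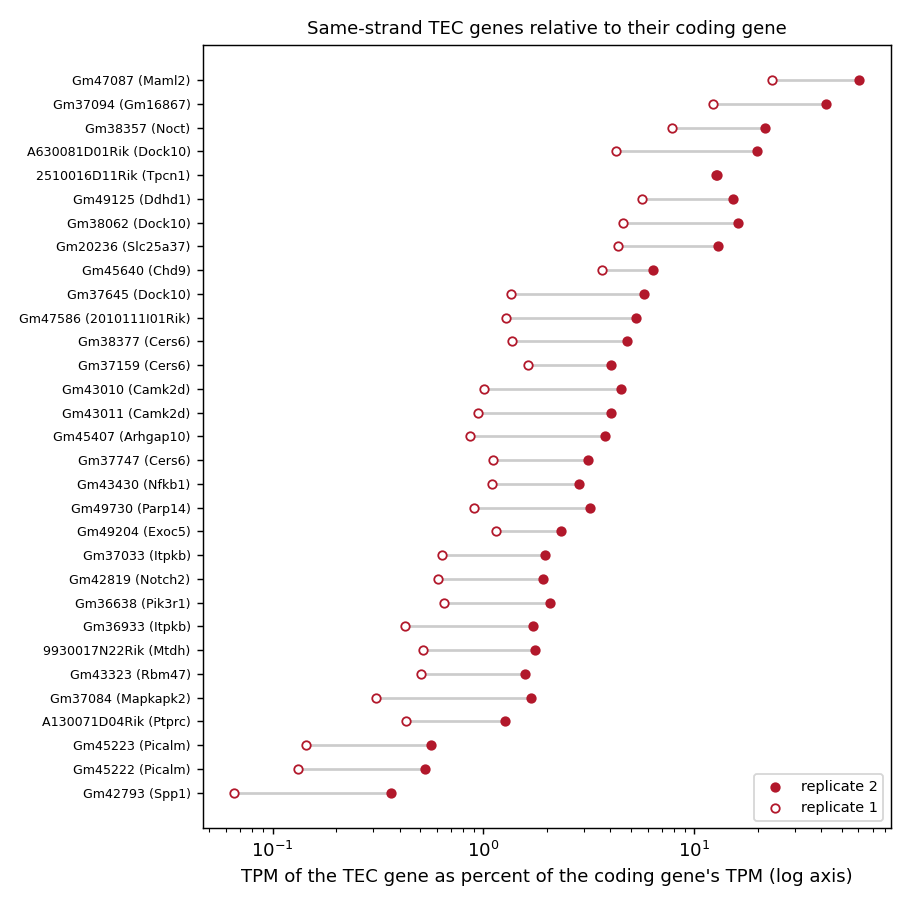
TPM of each of the 31 same-strand TEC genes as percent of the TPM of its host (log axis), in replicate 2 (filled) and replicate 1 (open), sorted by the value for the mean of both. Most lie under 5%, and the filled point lies to the right of the open one except in 2510016D11Rik, where both nearly coincide.

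Gm20236 in intron 1 of Slc25a37, the mitochondrial iron importer gene, and Gm37094 in Gm16867 have identical sequences, with 0 differing bases over 4540. Each was given 660.5 counts in replicate 2 and 201.5 counts in replicate 1, so the deposited split is an even one and which copy gave the reads cannot be told. The posterior SD that the authors gave was 50.5% of it in replicate 2, against 68.5% in replicate 1. Only 3 of the 52 genes had a posterior SD over 10%: this pair and Gm37376. The same-strand counts and medians given here include both copies of the pair.

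Of the 13 opposite-strand genes, 9 had a ratio of 1.5 or less. Of the 52 genes the one with the highest mean TPM in the first quantification was 2210406H18Rik (chr7:121062852-121063959, - strand), inside an intron of Mettl9, a histidine methyltransferase gene, with no shared exon base. It had 899 counts (10.4 TPM) in replicate 2 and 802 counts (7.79 TPM) in replicate 1, a ratio of 1.28 (1.17 to 1.41). Its level was 87.8% of that of Mettl9, which had 10.2 TPM in replicate 2 and 10.47 TPM in replicate 1. Gm10524, opposite Zfp236, had 299 counts in replicate 2 and 319 in replicate 1.

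Of the 13, 10 overlap exons of the coding gene's mRNA. The strand setting in counting is not given in the sources used here, so reads of such pairs may not have been told apart. The same holds for intron reads of the coding gene where a TEC gene lies in its intron on the opposite strand. The comparison of same-strand with opposite-strand genes depends on that setting. Gm49338 (chr9:45858604-45860682) had 326 counts (1.79 TPM) in replicate 2 and 466 counts (2.16 TPM) in replicate 1, a ratio of 0.802 (0.693 to 0.924). It shares 45.7% of its bases with exons of Bace1, the beta-secretase gene, and its level was 106% of that of Bace1. Gm45133 had 118 counts in replicate 2 and 103 in replicate 1, while Ccdc106 opposite it was at 0.01 TPM in replicate 2 and 0 in replicate 1. Of the TEC genes that overlap a coding gene, these alone exceeded it in mean TPM over both libraries; in replicate 2 Gm49338 was at 95.7% of Bace1, and 2210406H18Rik at 101% of Mettl9. Gm10252 had 373 counts (6.24 TPM) in replicate 2 and 354 counts (4.99 TPM) in replicate 1, opposite the far more abundant Ftl1, the ferritin light chain gene, with 42.7% of its bases in Ftl1 exons. In the second quantification its count was 60.6 in replicate 2 and 59.5 in replicate 1, under the minimum.

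The 4 opposite-strand genes past 2-fold were AC167363.2, 4932442E05Rik, Gm47603 and 9330162G02Rik. AC167363.2 (chr17:29093416-29094461, - strand) lies opposite Cdkn1a, the gene for the cyclin-dependent kinase inhibitor p21. It had 215 counts in replicate 2 and 56.9 counts in replicate 1, a ratio of 4.30 (3.21 to 5.89), while Cdkn1a had a ratio of 0.748. The gene opposite Dyrk2, 4932442E05Rik, had a ratio of 3.34 beside 0.891 for that kinase gene, and 9330162G02Rik, opposite the ubiquitin ligase gene Ube3a, had 2.52 beside 0.973. Gm47603 lies in the same coding gene as the same-strand Gm47586, 2010111I01Rik, and their ratios were 3.31 and 5.18.

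Of the 8 genes outside coding genes, Gm44250 (chr6:5216258-5220486, - strand, 4229 bases) had the highest mean count of the 52 in the first quantification; in the second, Gm42427 and Gm37376 were above it. It starts 366 bases after the 3′ end of Pon3, a paraoxonase gene, on the same strand. It had 2206 counts (5.63 TPM) in replicate 2 and 2197 counts (4.72 TPM) in replicate 1, a ratio of 1.15 (1.08 to 1.22), beside 1.27 for Pon3. Gm42547 had 139 counts in replicate 2 and 190 counts in replicate 1 (ratio 0.838, 0.668 to 1.05), and its nearest coding gene was Zfp800, 25122 bases away.

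The largest ratio of the 61 was that of Gm37352 (chr8:84200869-84203049, + strand), 7629 bases past the 3′ end of Zswim4 on the opposite strand. It had 189 counts in replicate 2 and 35 counts in replicate 1, a ratio of 6.10 (4.29 to 9.14), while Zswim4 had a ratio of 1.00. Gm37560, 84 bases before the 5′ end of Bcl2a1d on the opposite strand, had 248 counts in replicate 2 and 86 in replicate 1 (ratio 3.29). Bcl2a1d belongs to a family of anti-apoptotic genes with closely related copies. The authors' posterior SD of the Gm37560 count was 0 in both libraries. In the second quantification, however, Gm37560 had 641 counts in replicate 2 and 204 in replicate 1 (ratio 3.39), so its level depended on the quantification. Gm43197 (ratio 2.43) was the third of these outside genes past 2-fold.

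Gm37376 (chr19:5801941-5802393, + strand) lies wholly inside Malat1 on the opposite strand. It had 72.1 counts in replicate 2 and 154 counts in replicate 1, a ratio of 0.537 (0.399 to 0.712), the lowest of all 61. Relative to Malat1 this is 0.0258% in replicate 2 and 0.225% in replicate 1. The posterior SD that the authors gave was 102% of the value in replicate 2, against 31.4% in replicate 1. In the second quantification it had 3965 counts in replicate 2 and 1332 counts in replicate 1, a ratio of 3.21, so neither its level nor its direction is settled by these tables. With the strand setting in counting not given, reads of Gm37376 and Malat1 may not have been told apart.

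Of the 9 other genes, 7 owed 0.04% to 2.96% of their count to the TEC isoform. Over the 9 the median ratio was 0.984, beside 0.981 for protein-coding genes, with 1 of 9 (Mir99ahg) past 2-fold. Ensa, which encodes a regulator of protein phosphatase activity in mitosis, had 5151 counts in replicate 2 and 6916 in replicate 1 (ratio 0.852). Its TEC isoform held 50.2 counts in replicate 2 and 16.9 in replicate 1, which is 0.56% of the gene and a ratio of 3.32, beside 0.846 for its other isoforms. Memo1 (0.91), Sfswap (1.08), Dera (1.01), Psmd9 (0.984), Cdkl2 (0.722) and 1700021F05Rik (0.933) were likewise carried by other isoforms. The TEC isoform of Sfswap, a splicing regulator gene, went the other way from that of Ensa, with 27.7 counts in replicate 2 and 38.3 in replicate 1.

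The long noncoding genes Dleu2 and Mir99ahg held more. In Dleu2, host gene of microRNAs deleted in lymphocytic leukaemia, TEC isoforms took 255 counts in replicate 2 and 75.0 in replicate 1, 24.7% of the gene and a ratio of 3.87, beside 1.46 for the rest. In Mir99ahg they took 28.0 counts in replicate 2 and 9.15 in replicate 1, 16.5% of the gene and a ratio of 3.37, beside 2.11 for the rest. How reads are divided among overlapping isoforms is an estimate, and counts this low carry wide counting error.

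At the threshold, the 3 genes just inside were Gm49204 in Exoc5, an exocyst subunit gene (131 counts in replicate 2 and 76 in replicate 1), Gm45133 (given above) and Gm36638 in Pik3r1, a regulatory subunit gene of phosphoinositide 3-kinase (159 counts in replicate 2 and 60 in replicate 1). Just outside were Gm44667 in Mef2a with 145 counts in replicate 2 and 51 in replicate 1, Gm38236 in Cers6 with 143 and 52 counts in the same order, and 2810025M15Rik, a pseudogene with a TEC isoform, with 74 and 113 counts.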

How the data were processed

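Total RNA without ribosomal RNA was sequenced in 2 libraries of 1 group. The expected counts, per gene and per transcript, were deposited by the authors without normalization, per the file headers, and many are fractional. TPM, as deposited by the authors, is scaled over all entries of a table. The posterior SD, used as a score of how uncertainly reads were divided, was also deposited by the authors. Per the deposited readme files, build mm10 and annotation M21 were used, alignments to the transcriptome gave the first quantification and the reads themselves the second. Aligner, quantifiers and strand setting: not given in the sources used here.

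TEC transcripts were taken from the type field of the second quantification, and positions, types and sequences from GENCODE M21. The host is the protein-coding gene that a TEC gene overlaps by 1 base or more. Spike-ins (0.204% of counts in replicate 2, 0.251% in replicate 1) and entries named by a bare number were left out. Expected counts, rounded, were scaled by TMM over genes averaging 10 or more (edgeR 4.0.16, R 4.3.3); ratios have 0.5 added and 95% Clopper-Pearson counting intervals. At 50157146 (replicate 2) and 55596625 (replicate 1) counts, these intervals are wide only for low genes. Only the scaling and the median ratio of genes changed by known folds were tested on simulated counts. The intervals, the host classes and the division of reads were not tested in this way. Python 3.11.15 served for the rest, with scipy 1.17.1, pandas 2.3.3, numpy 2.4.6 and, for plots, matplotlib 3.10.9.

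Alternatives were DESeq2 1.42.0 size factors, total count, no low-count filter, other added values and minimums, the second quantification and each library alone. Named are the 10 genes highest in TPM, the 10 highest in count, 5 at each end of the ratio, 3 on each side of the minimum, those above their host in TPM, and the hosts; any other gene was named after its values were seen. Sequence ends are shown for the 5 genes of highest count not on chromosome 18. The members and lists were chosen with earlier results of these data known.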

Additional observations from a re-analysis of the deposited data

How the results depend on the processing

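With 1 group and 2 libraries, depth limits single genes near the minimum; a difference between preparations and one between cells cannot be told apart. The number of genes was 61, against 131 at a minimum of 50, 27 at 200 and 129 in the second quantification, and 38 to 84 from 1 library. TEC genes took 0.0536% of counts, 0.112% in the second quantification and 0.0334% to 0.0737% in single libraries. The median TPM of 0.775 was 3.57 when scaled over nuclear-encoded coding genes, 0.367 in the second quantification and 0.46 to 0.99 in single libraries. The median log2 ratio of 1.59 was 0.36 at a minimum of 200, where 7 of 27 genes were other genes with a TEC isoform and 11 were same-strand genes (median ratio still 3.997), and 0.18 over the 38 genes with 100 or more in replicate 1, an alternative added after the data were seen; that choice by construction leaves out genes low in replicate 1. Beyond these, the cause of the changes was not tested.

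Under the scaling alternatives, other added values and the second quantification, the median log2 ratio was 1.543 to 1.599, 36 to 38 genes were past 2-fold higher and 0 lower, and 28 to 29 of 31 same-strand genes were past 2-fold. The median percent of host TPM was 2.20 in the second quantification and 1.10 to 3.79 in single libraries. Counting a host of any type put 34 genes on its strand. Of the 23 genes named by rule, the ratio moved beyond its interval in the second quantification in 2, Ensa (-0.31 on the log2 scale) and Gm37376 (1.68), and the level beyond the SD in 14. Counting A in the genomic bases past each 3′ end, with its alternatives, was not run, since it needs a genome sequence that was not used here. Within the transcripts, 4 of 52 (7.69%) ended with 12 or more A in the last 20 bases. This was near the share over all TEC transcripts (9.03%) and over all transcripts (5.81%) of at least 200 bases.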

Other observations

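In the second quantification 51 of the 52 genes of type TEC had a higher count than in the first, with a median of 1.18 times; over all genes at the count minimum 98.0% had a higher count there, with a median of 1.08 times, and the library totals were higher too (62889522 in replicate 2 and 65933328 in replicate 1). Gm42427, a gene outside coding genes and chosen after its values were seen, had 412 counts in replicate 2 and 499.9 in replicate 1 in the first quantification, against 3539 counts in replicate 2 and 3451 in replicate 1 in the second.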
